A study of Arabidopsis thaliana with 40 samples.

Results

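Abundant smRNAs and an absence of sense total RNA reads picked out 669 of the 31189 annotated transposable elements (2.14%) in unopened *Arabidopsis thaliana* flower buds, out of 64790 genes and elements counted. The elements were selected on measured values. An element entered when its mean smRNA abundance, as log2 CPM (reads of a feature scaled to the size of the library), reached 3 on the sense or the antisense strand. Its mean sense total RNA abundance also had to equal the lowest value of that table, within 1e-06, which is the value of a feature without reads. Both averages were taken over the main set of libraries, described next, so the smRNA levels and the lack of sense total RNA in that set are descriptions and carry no test. The name silent rests on that set alone, because 667 of the 669 elements had reads in the sense total RNA tables of the second set. Whether those reads come from transcripts of the elements or from small RNAs in the total RNA libraries was not tested.

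The study sequenced smRNAs (inserts of 15 to 50 nt) and total RNA (fragments of 140 to 250 nt) from buds of untreated plants at 30 days, to learn which features depend on the RNA-dependent RNA polymerases and their partners. Its 40 libraries form 20 groups of 2. The main set holds, for each assay, the wild type Col-0 and the mutants *rdm12*, *sgs3*, *rdr6*, *rdr5*, *rdr4*, *rdr2* and *rdr1*, or 16 libraries. The second set holds *rdr3* and its own Col-0, or 4 libraries per assay. Each mutant was represented by 1 mutant line, with Col-0 as the wild type, and *rdr3* alone shared no Col-0 libraries with the other mutants. For *rdr3* total RNA the labels name Col-0 libraries 1 and 2 as the control, whereas the Col-0 total RNA libraries of that set are numbered 9 and 10.

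In plants, RNA-directed DNA methylation helps to keep transposable elements quiet, beside other DNA methylation and chromatin factors. RNA polymerase IV makes short transcripts at an element, RDR2 copies them into double-stranded RNA, and DCL3 cuts that RNA into siRNAs, which therefore come from both strands. The siRNAs are loaded into AGO4 or AGO6 and pair with transcripts of RNA polymerase V, and DRM2 then methylates the DNA. RDR6 and SGS3 make siRNAs from other RNAs, including some active elements. The tables hold no lengths of the small RNAs, so smRNA is used here for all inserts of that size class.

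Neither a value per library nor a value per genotype was analysed, so no spread between replicates can be given. Within an assay and strand, the abundance of each of the 64795 rows was identical to the last digit in the tables of all 7 main-set mutants. Each value printed for the main set is therefore 1 average over wild type and mutants together, the *rdr2* libraries included. A mutant was not compared with Col-0, and bulk averages cannot tell fewer cells with an siRNA from less siRNA per cell. Of 16 listed genes of RNA-directed DNA methylation and of other DNA methylation and chromatin factors (*MET1*, *CMT2*, *CMT3*, *DDM1*), 16 had sense total RNA reads in both sets, where 84.8% (main) and 85.6% (second) of protein-coding genes had them. Their levels ran from *SHH1* (-0.14), which helps recruit RNA polymerase IV, to *AGO4* (4.20) in main-set log2 CPM. *RDR2* stood at 1.04 and *DCL3* at 2.96. Of 7 flower marker genes, 7 had reads in both sets, from *LFY* (-0.51) to *SEP3* (4.91). These levels are not corrected for transcript length.

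Most of the 669 elements lay close to the limit, with a short tail of very abundant ones. On the strand with more smRNA, 428 elements stood from 3 to below 4 in log2 CPM, 166 from 4 to below 5, 55 from 5 to below 6, 16 from 6 to below 7 and 4 from 7 to below 8. Sense smRNA ranged from -3.08 to 7.91 with a median of 3.49, and antisense smRNA from -1.85 to 6.75 with a median of 3.18. Every element had smRNA reads on both strands in the main set, where a feature without reads stands at -3.86 (sense) or -4.14 (antisense). The rule fixes this for the strand that passed the limit. Of all elements, 74.3% had sense and 74.5% had antisense smRNA reads there. All 119 elements with smRNAs past the limit and sense total RNA reads also had smRNA reads on both strands. Just inside the limit were *AT4TE36530* (3.004 antisense), *AT2TE16215* (3.005 antisense) and *AT5TE76000* (3.005 sense). Just outside it were *AT4TE45190* (2.9999 sense), *AT4TE19110* (2.998 antisense) and *AT1TE27340* (2.998 antisense). The limit thus does not part distinct groups.

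**Figure D1:**
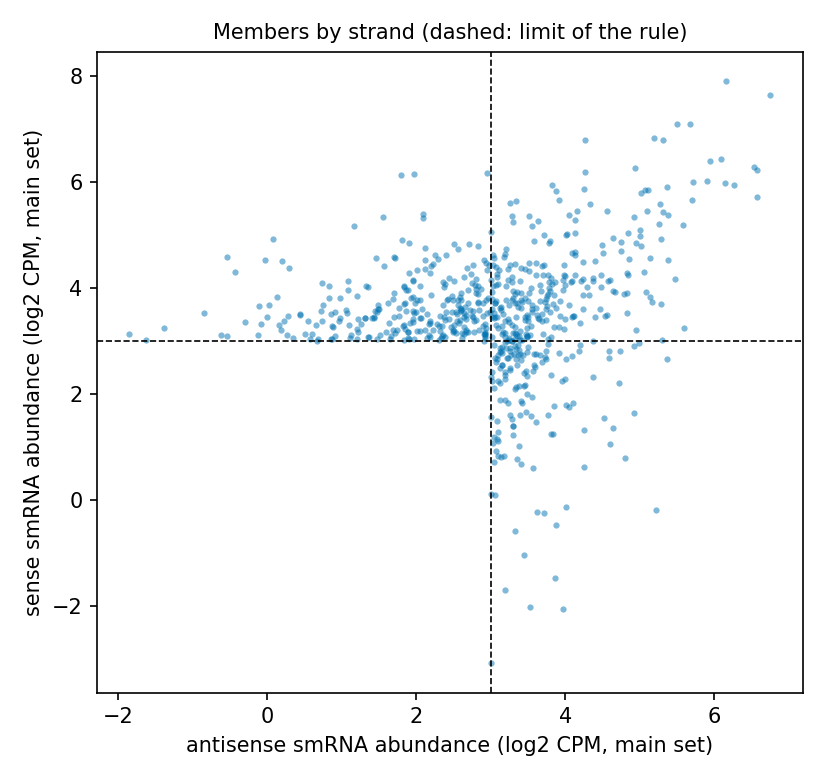
Mean sense (vertical axis) and antisense (horizontal axis) smRNA abundance of the 669 elements in the main set, in log2 CPM, with 1 point per element and dashed lines at the limit of 3. The empty lower left corner is set by the rule, and the tail at the upper right holds elements abundant on both strands.

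The most abundant elements carried smRNAs on both strands. All of the 10 highest passed 3 on the sense and the antisense strand. *AT4TE21980* led with 7.91 sense and 6.15 antisense, followed by *AT3TE63205* (7.63 sense, 6.75 antisense) and *AT4TE07570* (7.10 sense, 5.51 antisense). *AT4TE26670*, *AT3TE75240*, *AT4TE31570* and *AT5TE27655* followed with sense values from 6.78 to 7.08 and lower antisense values, from 4.27 to 5.68. In *AT4TE13435*, *AT2TE52215* and *AT5TE34865* the antisense strand was the higher one, at 6.58, 6.58 and 6.53, over sense values of 6.23, 5.70 and 6.28. This order rests on the scale of the antisense table. With that table moved down by 0.60, for the reason given with the strand difference, sense minus antisense was 0.25 in *AT4TE13435*, -0.27 in *AT2TE52215* and 0.35 in *AT5TE34865*, so 2 of the 3 turned to sense. Their differences in the second set were -1.18, -1.66 and -0.30. The superfamilies and lengths of these elements were not analysed here, and the values are not corrected for length.

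The 669 elements held a large part of the smRNA signal of all elements. They made up 2.14% of the elements, 41.3% of the summed sense CPM of elements and 36.4% of the antisense CPM. Of the CPM assigned to all genes and elements, they held 14.1% in sense and 15.9% in antisense, where the second set gave 6.18% and 18.2%. A high share follows from a rule that takes the abundant elements. In the second set, whose smRNA values the rule did not use, they held 44.0% of the sense and 39.7% of the antisense CPM of elements. Only uniquely mapped reads enter these sums. Reads with several mapping places, which repeated elements produce readily, took 76.1% of all CPM in the main-set sense table and 82.2% in its antisense counterpart.

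The strands differed from element to element. Of the 669 elements, 261 (39.0%) passed 3 on both strands, 268 (40.1%) in sense alone and 140 (20.9%) in antisense alone. Sense minus antisense smRNA in the main set had a median of 0.50 on the log2 scale, quartiles of -0.43 and 1.48 and a range from -6.09 to 5.12. The strands lay within 1 log2 unit of each other in 321 elements. Sense was higher by more than 1 in 246 elements and antisense by more than 1 in 102. The median depends on how the strand tables are scaled. The row of reads with several mapping places, which are not assigned to a feature on either strand, was 0.60 higher in the antisense table of the main set, and moving that table down by this shift gave a median of 1.10, with sense higher by more than 1 in 351 elements and antisense in 65. In the second set that row differed by 0.0041 and the median was 0.21.

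The strand with more smRNA in the main set was also the higher one in the second set for nearly all clearly biased elements. Of the 246 elements with more sense smRNA by over 1 log2 unit, 245 had more sense smRNA in the second set, and of the 102 with more antisense smRNA, 102 had more antisense smRNA there. Beyond 2 log2 units the counts were 112 of 112 and 46 of 46. Across the 669 elements, the strand difference of the main set and that of the second set had a Pearson r of 0.95 and a Spearman rho of 0.96. These points share the libraries of each set and the annotated strand of the element, and elements are not independent replicates.

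**Figure D2:**
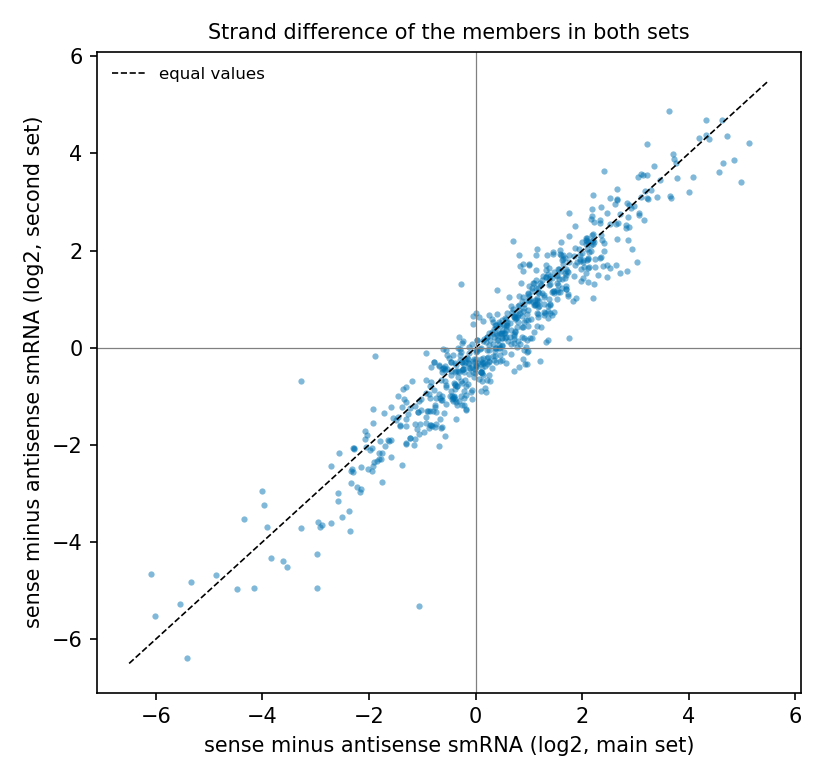
Sense minus antisense smRNA abundance of each of the 669 elements, in log2 units, in the main set (horizontal axis) and the second set (vertical axis), with a dashed line of equal values. The elements spread along the line from -6.09 to 5.12 on the horizontal axis, with *AT4TE50100* among the few far from it.

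The most one-sided elements had almost all of their smRNA on 1 strand. *AT3TE47275* had 4.59 sense and -0.53 antisense in the main set, and -0.08 sense and -4.29 antisense in the second set. *AT4TE08415* (3.12 sense, -1.85 antisense) and *AT1TE40810* (4.92 sense, 0.08 antisense) came next on the sense side. All 3 leaned to sense in both sets, by 3.42 to 5.12 log2 units. On the antisense side, *AT2TE16215* had -3.08 sense and 3.005 antisense, *AT4TE03600* had -2.05 sense and 3.97 antisense, and *AT5TE57700* had -2.01 sense and 3.53 antisense. In the second set their sense values were all -5.11, just above the -5.28 of a feature without reads, with antisense values from -0.45 to 0.41.

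In the second set, every one of the 669 elements had smRNA reads on both strands, against 47.4% of all elements in sense and 47.9% in antisense. The same held for all 119 elements with abundant smRNAs and main-set sense total RNA reads, so it was not particular to the 669. The abundance of the 669 was lower than in the main set, with medians of -0.20 sense and -0.37 antisense. The second set minus the main set had a median of -3.73 sense, with an SD over elements of 0.41, and -3.51 antisense, with an SD of 0.45. Genes with smRNAs past the same limit moved by a median of -3.73 and annotated miRNA genes by -3.99, and reads with several mapping places took 97.7% of all CPM in both second-set smRNA tables. Protein-coding genes moved by a median of -2.10. These gene medians are for the sense strand and cover genes with reads in both sets. A feature without sense reads stands at -3.86 in the main set and -5.28 in the second, so features with few reads can move less. The lower level was thus shared with other sources of abundant smRNA. Whether it was even across features cannot be told from the protein-coding genes, and its cause was not tested. The order of the elements was kept, with r of 0.95 (rho 0.90) between the sets for sense smRNA and 0.94 (rho 0.93) for antisense smRNA.

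The elements highest in the second set were mostly those that led the main set. *AT4TE21980* (4.83 sense), *AT4TE07570* (4.17 sense), *AT3TE63205* (4.06 sense) and *AT3TE75240* (3.54 sense) were among the 5 highest. The other was *AT4TE50100*, with 3.85 antisense and -1.47 sense in the second set. In the main set it had 3.45 antisense and 2.39 sense, so it was the 1 element whose antisense smRNA was not lower in the second set, by a difference of 0.41.

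Total RNA reads set the libraries of the study apart for these elements. In the main set, sense total RNA stood at the minimum of -1.85 in all 669 elements by the rule, and antisense total RNA, which the rule did not use, stood at its minimum of -1.77 in 597 (89.2%). The remaining 72 elements (10.8%) had antisense reads, against 4.89% of all elements, 23.5% of the 119 elements with abundant smRNAs and sense total RNA reads, and 4.49% of the 29370 elements with fewer smRNAs and no such reads. Of the 72, 52 lay within 0.05 log2 units of the minimum, close to the smallest step that the table holds above it (0.037). The highest was *AT2TE78945* at -1.35, then *AT4TE42280* at -1.38, *AT5TE27610* at -1.41, and *AT1TE76325* and *AT1TE80685* at -1.47. None of these values is far above a feature without reads.

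In the second set, 667 of the 669 elements (99.7%) had sense total RNA reads and 669 had antisense reads. Of all elements, 42.8% had sense and 44.1% had antisense reads in those libraries, where the main set gave 3.69% and 4.89%. The median sense abundance of the 669 elements was 1.53, with quartiles of 0.90 and 2.14 and a highest value of 5.78, and the median antisense abundance was 1.33. The 119 elements with abundant smRNAs and main-set transcripts had medians of 1.57 and 1.28. The 29370 elements with fewer smRNAs had medians at the table minima of -2.83 and -2.73, and 40.3% of them had sense reads. The 669 elements thus stood in that set beside the 119 elements with main-set sense reads, although genotype and libraries both differ between the sets and cannot be told apart here. Of the 119, 85 lay within 0.05 log2 units of the main-set minimum of sense total RNA (smallest step 0.039), so most had very few reads there. Of the 669 elements, 662 had a second-set sense value above -1.85, the level of no reads in the main set.

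The highest second-set total RNA values belonged to elements at the top of the smRNA order. *AT4TE07570* had a sense total RNA abundance of 5.78 and an antisense abundance of 3.77, *AT3TE63205* of 5.60 and 5.002, and *AT4TE21980* of 5.45 and 4.19. In the main set all 3 stood at -1.85 on the sense strand, and *AT4TE07570* alone stood above the antisense minimum, at -1.73. Only *AT2TE16215* and *AT4TE03600* had no sense total RNA reads in either set. Both are among the 3 elements with the strongest lean to antisense smRNA, and both had antisense total RNA reads in the second set (0.42 and 2.27).

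In the second set, total RNA followed smRNA element by element and strand by strand. Second-set total RNA minus second-set smRNA had a median of 1.74 log2 units on the sense strand, with an SD over elements of 0.25, and 1.70 on the antisense strand, with an SD of 0.29. Across the 669 elements, r between the assays was 0.98 on the sense strand (rho 0.97) and 0.98 on the antisense strand (rho 0.98). Sense smRNA and antisense total RNA had r of 0.12 (rho 0.08). These values share the annotation, the length of each element and the second set of plants, and both assays count uniquely mapped reads alone. The value across strands can be lowered by the rule, which took elements abundant on either strand. Sense and antisense smRNA of the main set had r of 0.14 (rho 0.11), so a low value across strands was not particular to the pairing of assays. The strand lean of the main-set smRNAs was also that of second-set total RNA, in 245 of the 246 sense-biased and 102 of the 102 antisense-biased elements. This too was counted in the 669 alone.

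**Figure D3:**
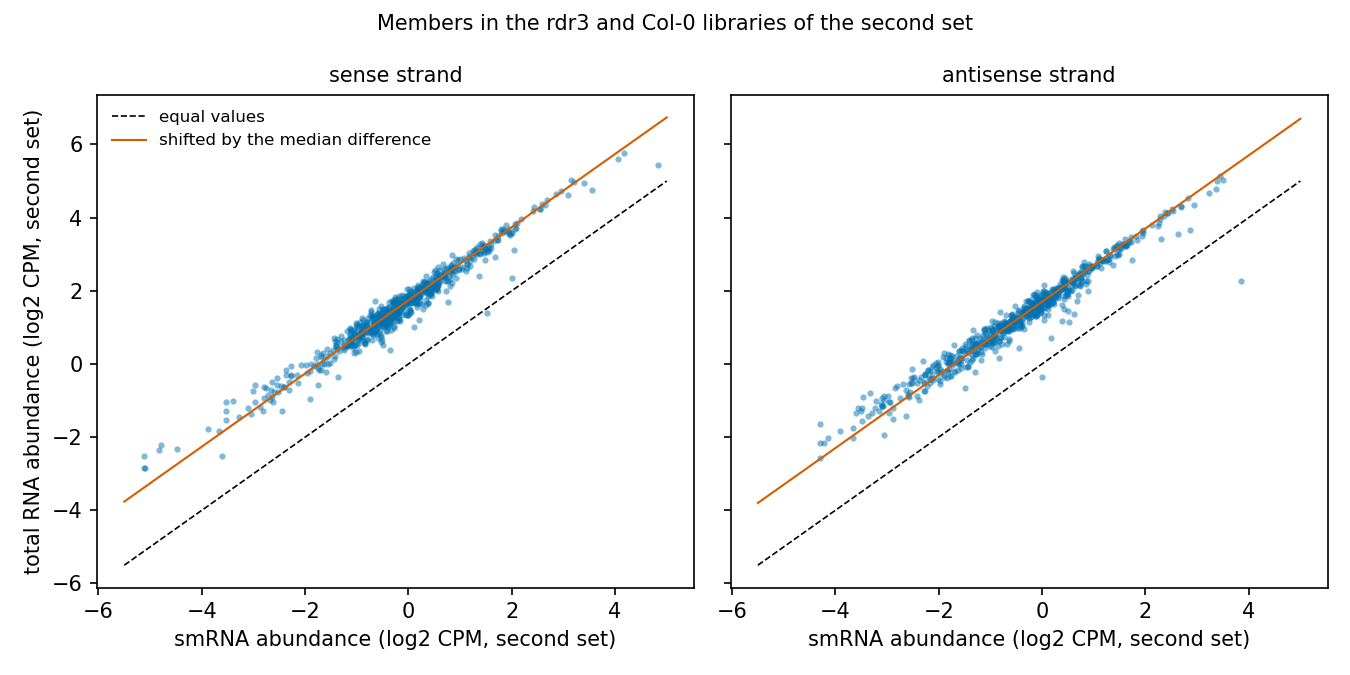
Total RNA abundance against smRNA abundance of the 669 elements in the second set, in log2 CPM, on the sense strand (left) and the antisense strand (right). The dashed line marks equal values and the solid line lies above it by the median difference, 1.74 on the left and 1.70 on the right, and nearly all points lie close to the solid line.

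The median offset was similar in other features with smRNAs, though its SD was wider in genes, and it was larger in protein-coding genes. On the sense strand it was 1.73 (SD 0.31) in the 119 elements with transcripts, 1.71 (SD 1.68) in genes with smRNAs past the limit and 1.67 (SD 0.93) in miRNA genes. The quartiles were 1.54 and 1.89 in genes past the limit, against 1.60 and 1.86 in the 669 elements. The SD of those genes thus reflects a tail, with a 95th percentile of 6.16. In protein-coding genes it was 5.05 (SD 1.55). These values cover the features with sense reads in both assays of the second set. Those were 19271 of 26699 protein-coding genes, 142 of 178 miRNA genes and 642 of 646 genes with abundant smRNAs. Detection by set moved in the same way. Of 178 miRNA genes, 48.3% had sense total RNA reads in the main set and 81.5% in the second set, and of 646 genes with abundant smRNAs, 54.5% and 99.7%. Of 26699 protein-coding genes, 84.8% and 85.6% had reads. The part of library type, size selection or genotype in the second-set total RNA was not tested.

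Among all elements, the share with sense total RNA reads was lowest where smRNAs were scarce in both sets, at very different levels, and was nearly level from 3 upward. Where the higher smRNA strand lay below -3, 2.15% of elements had sense total RNA reads in the main set and 7.06% in the second set. From -3 to below -2 the shares were 2.42% and 57.6%, and from -1 to below 0 they were 4.78% and 96.5%. From 3 to below 4, the range of most of the 669 elements, they were 14.9% and 99.6%, and at 5 and above 15.7% and 100%. Past the smRNA limit, 119 elements had sense reads in the main set and 669 had none.

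**Figure D4:**
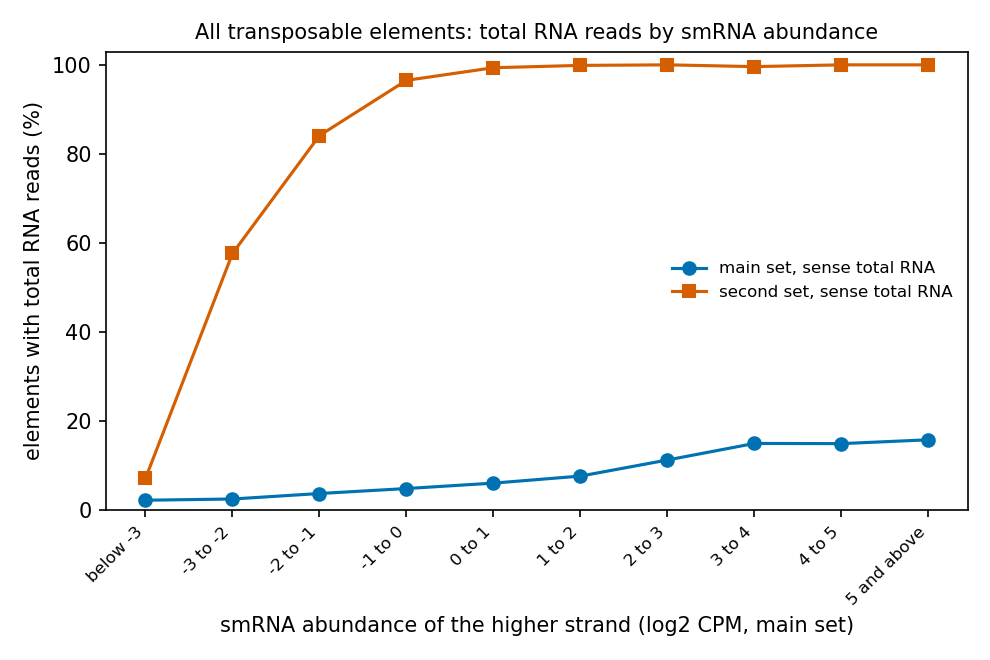
Share of all 31189 elements with sense total RNA reads (vertical axis, percent) by the main-set smRNA abundance of their higher strand (horizontal axis, log2 CPM), for the main set (circles) and the second set (squares). The main-set share climbs from 2.15% to 15.7%, and the second-set share passes 96% at an smRNA abundance of -1 to 0.

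A few elements fell below the common offset in the second set. *AT2TE26090* had a sense smRNA abundance of 1.52 and a sense total RNA abundance of 1.40, a difference of -0.12. *AT2TE05440* had 2.01 and 2.35, and *AT4TE21980* had 4.83 and 5.45. On the antisense strand, *AT4TE50100* had an smRNA abundance of 3.85 and a total RNA abundance of 2.26, a difference of -1.59. *AT5TE34975* had 0.008 and -0.35 there, a difference of -0.36. These elements were chosen after their values were seen or by their rank in smRNAs, and they are not a full list. Each had more smRNA for its total RNA on that strand than nearly all others.

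The elements came from all 5 chromosomes. The chromosome stands in the identifier, and chromosomes 1 to 5 held 150, 141, 130, 125 and 123 of them, or 2.10%, 2.37%, 2.01%, 2.52% and 1.84% of the elements numbered there. The identifiers run in order along each chromosome, so position could be read as rank, although start and end coordinates were not analysed here. The identifiers of each chromosome were split in order into 10 bins of equal size. Over all chromosomes, bin 5 held 22 of the 669 elements (0.705% of those in the bin) and bin 4 held 35, where bin 2 held 100 (3.21%). On chromosome 1, bin 5 held 2 of 714 elements (0.28%), on chromosome 3 it held 2 of 646 (0.31%), and on chromosome 5 bins 4 and 5 held 4 each. On chromosome 4 the low bins were 3 and 4, with 3 elements each. On chromosome 2, bins 5 and 4 held the fewest, with 6 (1.01%) and 7 (1.18%), and bins 6 and 7 the most, with 27 (4.54%) and 25 (4.20%). The lowest bins thus lay inside the numbering and not at its ends on all 5 chromosomes, least clearly on chromosome 2, where bin 10 held 1.52%. A low count of the 669 does not mean less smRNA over all elements of a bin. The median smRNA of the higher strand over all elements was -2.73 in bin 4, the highest of the 10 bins. It was -3.31 in bin 5 and -3.20 in bin 2. Only uniquely mapped reads enter these values.

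**Figure D5:**
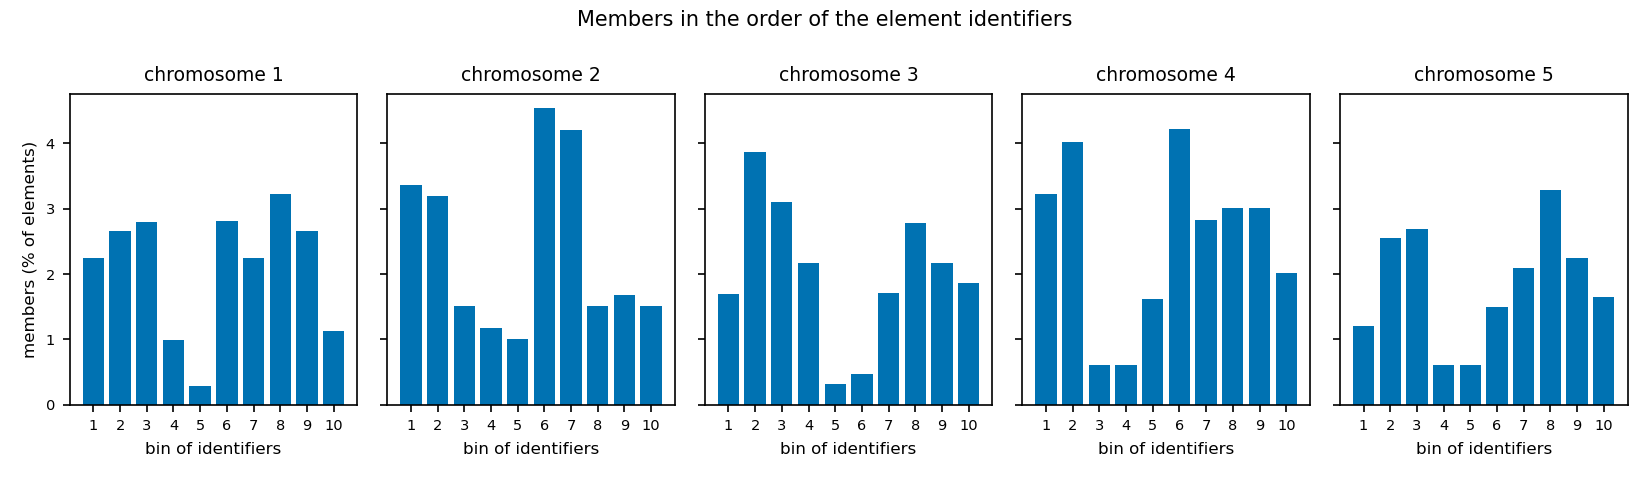
Share of elements that are among the 669 (vertical axis, percent) in 10 equal bins of the element identifiers, in order, on chromosomes 1 to 5. Each chromosome but chromosome 2 has a bin of 0.605% or less in its inner part.

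Some of the 669 elements stood beside each other in the order of the identifiers. Beside means next in that order. The numbers themselves can lie apart, as in *AT4TE46400* and *AT4TE46700*, and distances were not analysed. Of the 669, 114 (17.0%) stood beside another of them, against 4.18% of all elements, 10.1% of the 119 with abundant smRNAs and transcripts and 3.88% of the 29370 with fewer smRNAs. The other 555 stood singly. There were 41 runs of 2, 6 runs of 3, 2 runs of 4 and 1 run of 6. Of the 10 elements highest in smRNAs, 5 had such a neighbour, as had 4 of the 6 most one-sided elements. Neighbours follow each other in the order along the chromosome, so their values cannot be taken as independent.

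The run of 6 lay on chromosome 2, from *AT2TE24210* to *AT2TE24235*, and was singled out after its values were seen. Sense smRNA in the main set was 3.93, 5.86, 4.42, 6.15, 3.06 and 3.04 in the order of the identifiers. Antisense smRNA was 3.67, 4.25, 2.19, 1.97, 3.25 and 0.58. The strand balance therefore changed within the run, from 0.26 in *AT2TE24210* to 4.19 in *AT2TE24225* and -0.19 in *AT2TE24230*. Sense total RNA was at the minimum in the main set for all 6 and stood at 1.67, 3.68, 2.08, 4.24, 1.21 and 1.51 in the second set, highest where sense smRNA was highest.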

How the data were processed

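smRNAs and total RNA of flower buds were sequenced by the authors, 2 libraries per group. Reads were trimmed with cutadapt, mapped to TAIR10 with TopHat and counted by strand over genes and transposable elements with HTSeq, and the authors ran edgeR for each mutant against Col-0 (versions are not given in the sources used here). The deposited tables hold the authors' log2 CPM, log2 fold changes, p-values and FDR. Only log2 CPM, an average over all libraries of a set, was used. The other columns are the authors' own comparisons and were left out, as were the tables of genomic bins, which do not name elements. There were 32 tables used, 8 of them distinct. Only averages were used, with no value or depth assigned to each library, so no intervals were computed.

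Elements were found by the rule with Python 3.11.15 and pandas 2.3.3, and the selection was checked on simulated tables. CPM sums were taken after subtracting the value of a feature without reads. Values are descriptions without tests. Elements named are the 10 highest in smRNAs, the 3 most biased to each strand, 3 on each side of the limit, and the highest in second-set smRNA (5), main-set antisense total RNA (5) and second-set sense total RNA (3), besides those said to be chosen after their values were seen. The members and lists were chosen with earlier results of these data known. Alternatives changed the limit, the strands required and the definition of no reads.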

Additional observations from a re-analysis of the deposited data

Results flagged for a closer look

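In the second set, whose libraries did not choose the elements, 667 of the 669 had sense total RNA reads and 669 had antisense reads. Of all elements, 42.8% and 44.1% had them there, as had all 119 elements with abundant smRNAs and main-set sense reads. The main set had none on the sense strand of the 669 by the rule. In the main set's antisense total RNA, which the choice did not use either, 72 of the 669 (10.8%) had reads. The share was 4.89% over all elements and 23.5% over the 119.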

How the results depend on the processing

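A smRNA limit of 2 gave 1558 elements, with a median strand difference of 0.35 and 54.5% of the summed smRNA CPM of elements. A limit of 4 gave 241, with 0.78 and 24.3%, and both strands past the limit gave 261, with 0.14 and 24.0%. The reported values were 669, 0.50 and 39.1%. The antisense strand alone gave 401 elements, and no sense total RNA reads in either set left 2. The share without sense total RNA reads in the second set, 0.30% as reported, was 0% with a limit of 4 and with both strands past it. Shifting the antisense table, added after the data were seen, gave a median of 1.40 in the 574 elements then chosen. The fewer or added elements come from the limits themselves. The other counts lay between 529 and 785. Leaving out each replicate was not run, since it needs values per library. No paired analysis was possible because the tables hold no value per library. Depth limits what no reads means: it says that no unique read was counted at this depth.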
